A study of Mus musculus with 4 samples.

Results

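The 8 chemokine receptor genes described here, Ccr1, Ccr2, Ccr3, Ccr6, Ccr7, Ccrl2, Cxcr2 and Cxcr4, were examined for open chromatin in microglia of WT mice and of mice lacking the transcription factor IRF8 (IRF8KO). Their chromatin was taken as every deposited ATAC-seq peak that overlapped a gene body or the 10 kb on either side of it (mouse build GRCm38, GENCODE M21 gene models), except that the Ccr2 window ends with the gene and has no flank on its 3′ side. This gave 181 of the 676057 deposited peaks, 48 and 47 in the WT libraries and 38 and 48 in the IRF8KO libraries. Merging overlapping strict peaks, those with a −log10 q of 2 or more, gave 47 of 155546 regions. The 8 windows do not overlap each other.

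ATAC-seq inserts sequencing adaptors into accessible DNA, so that a pile of tags marks an open regulatory element. The study had 2 WT and 2 IRF8KO libraries, all from untreated C57BL/6 mice 3 months of age, of microglia isolated without enzymes and then sorted by FACS. The labels describe IRF8KO no further, and do not say whether the knockout was made in all cells, which exons were removed, whether the WT mice were littermates, or which surface markers set the sorting gate. They also do not state that replicates came from separate mice, so every p-value below measures only the spread between these libraries, which may be technical.

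Chemokine receptors are G protein-coupled receptors that steer leukocytes along gradients of secreted chemokines. CC receptors such as CCR1, CCR2 and CCR3 draw monocytes and granulocytes into inflamed tissue, CCR6 and CCR7 respond to CCL20 and to CCL19 and CCL21, CXCR2 guides neutrophils, and CXCR4 holds cells near sources of CXCL12. CCRL2 is an atypical member that binds chemerin without passing on a signal of its own. Healthy microglia are known for CX3CR1 rather than for CCR2, which marks the monocyte lineage. IRF8 is a factor of the myeloid lineage that binds DNA together with PU.1 at composite sites made of an ETS part and an IRF part.

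Depth differed between the groups. The file headers gave 46948938 and 48896408 tags for the WT libraries and 78793572 and 66224648 for the IRF8KO libraries, a ratio of 1.51, and tag sizes of 50 bases in WT and 49 in IRF8KO, so depth, tag size and genotype cannot be told apart. Levels are therefore normalised pileup, the height of the tag pile at a peak's summit for every 1000000 tags in the library, given for replicate 1 and then replicate 2. At regions with a peak in all 4 libraries, the median level was 0.767 and 0.614 in WT and 0.444 and 0.695 in IRF8KO, so IRF8KO replicate 1 lay lowest. The promoter of Irf8 itself held strict peaks in every library (2.07 and 1.49 in WT, 0.863 and 1.36 in IRF8KO), which checks no label because the deleted part is not known. Microglial markers had a strict promoter peak at 8 of 8 genes in both WT libraries and at 7 of 8 in both IRF8KO libraries, where the transcription factor gene Sall1 had none. Their summed levels were 22.1 and 15.9 in WT and 9.47 and 15.3 in IRF8KO, and their part in the receptor differences was not tested. In bulk libraries such as these, fewer cells of a type and less open chromatin per cell cannot be told apart.

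The sequences below are the 201 bases around the summits of 7 regions, from GRCm38, plus strand, 5′ to 3′. The first and the last of the 7 are the WT-only and the IRF8KO-only region with the highest −log10 q in any library among the receptors; for the IRF8KO-only one this is replicate 2, while in replicate 1 a region at Ccrl2 was higher (7.54 beside 3.07). The region 5.18 kb upstream of Ccr3 had the largest called rise, and the 4 others are all the receptor regions that held an ETS-IRF match; these 5 were chosen after their values and matches had been seen. Capitals mark matches to any of 6 motifs searched on both strands within 100 bp of the summit: the ETS-IRF composite (GGAA, any 2 bases, then GAAA), the ISRE (GAAA, any 2 bases, then GAAA), PU.1 (GAGGAAGT), AP-1 (TGACTCA), CEBP (TTGC, any 2 bases, then AA) and RUNX (TGTGGTT).
Ccr6, 7.19 kb upstream, chr17:8228750-8228950, WT only, no match: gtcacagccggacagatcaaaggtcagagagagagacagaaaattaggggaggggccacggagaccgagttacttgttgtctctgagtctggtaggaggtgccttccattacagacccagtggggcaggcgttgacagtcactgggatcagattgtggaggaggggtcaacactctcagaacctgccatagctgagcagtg
Ccr6, 3.72 kb upstream, chr17:8232225-8232425, lower in IRF8KO, ETS-IRF: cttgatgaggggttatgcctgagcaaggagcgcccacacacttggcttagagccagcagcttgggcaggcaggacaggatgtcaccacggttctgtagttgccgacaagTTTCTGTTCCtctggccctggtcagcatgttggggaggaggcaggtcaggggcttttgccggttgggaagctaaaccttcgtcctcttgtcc
Ccr1, downstream, chr9:123953625-123953825, low or absent in IRF8KO, a pair of ETS-IRF matches: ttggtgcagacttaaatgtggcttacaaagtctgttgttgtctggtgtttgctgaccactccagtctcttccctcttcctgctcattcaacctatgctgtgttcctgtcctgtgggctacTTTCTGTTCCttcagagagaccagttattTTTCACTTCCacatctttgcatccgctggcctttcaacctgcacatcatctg
Ccr3, downstream, chr9:124037804-124038004, not called, ETS-IRF, then RUNX and CEBP overlapping: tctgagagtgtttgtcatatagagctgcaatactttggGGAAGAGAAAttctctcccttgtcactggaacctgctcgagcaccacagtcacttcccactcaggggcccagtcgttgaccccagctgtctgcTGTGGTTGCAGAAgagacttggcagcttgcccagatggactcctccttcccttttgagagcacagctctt
Cxcr4, intron, chr1:128590794-128590994, higher in IRF8KO, CEBP, then ETS-IRF and PU.1 overlapping: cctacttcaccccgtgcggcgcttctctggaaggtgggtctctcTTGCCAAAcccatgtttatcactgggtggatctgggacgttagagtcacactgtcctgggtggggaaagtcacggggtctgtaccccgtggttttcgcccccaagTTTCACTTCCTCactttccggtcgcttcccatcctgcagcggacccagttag
Ccr3, 5.18 kb upstream, chr9:124016690-124016890, higher in IRF8KO, no match: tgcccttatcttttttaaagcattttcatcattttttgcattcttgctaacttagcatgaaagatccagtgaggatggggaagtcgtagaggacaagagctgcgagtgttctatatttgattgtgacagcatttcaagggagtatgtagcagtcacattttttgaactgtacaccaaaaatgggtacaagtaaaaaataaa
Ccr1, intron, chr9:123964863-123965063, IRF8KO only, CEBP: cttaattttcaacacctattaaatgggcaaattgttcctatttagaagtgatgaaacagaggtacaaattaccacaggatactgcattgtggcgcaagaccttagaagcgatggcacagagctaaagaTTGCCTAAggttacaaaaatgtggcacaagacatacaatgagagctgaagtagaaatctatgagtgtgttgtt

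Of the 47 receptor regions, 4 were present only in WT, meaning that WT replicates 1 and 2 each had a strict peak there and no IRF8KO library had any deposited peak. That is 8.51% of them, beside 5.58% of all 155546 regions. A further 3, or 6.38%, were present only in IRF8KO, beside a background of 3.86%. Both counts are small, and the shares are given as a description without a test. Of the rest, 22 had a peak in all 4 libraries and 18 were present in other combinations. By the place of the summit, 32 were intergenic, 12 in introns, 2 in a 5′ UTR and 1 in a 3′ UTR. Intergenic here means outside the annotated transcripts and includes promoter regions just upstream of a start. By gene, 3 of the 8 receptors (Ccr3, Ccr6 and Ccrl2) held a WT-only region and 3 (Ccr1, Ccrl2 and Cxcr4) an IRF8KO-only one, beside 22.1% and 16.3% of 21755 protein-coding genes. Window lengths differ between genes, and these shares were not matched for them. Leaving out IRF8KO replicate 2 raised the WT-only count to 8, and leaving out WT replicate 1 raised the IRF8KO-only count to 5. At a −log10 q of 5 or more the counts were 2 and 1.

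**Figure D1:**
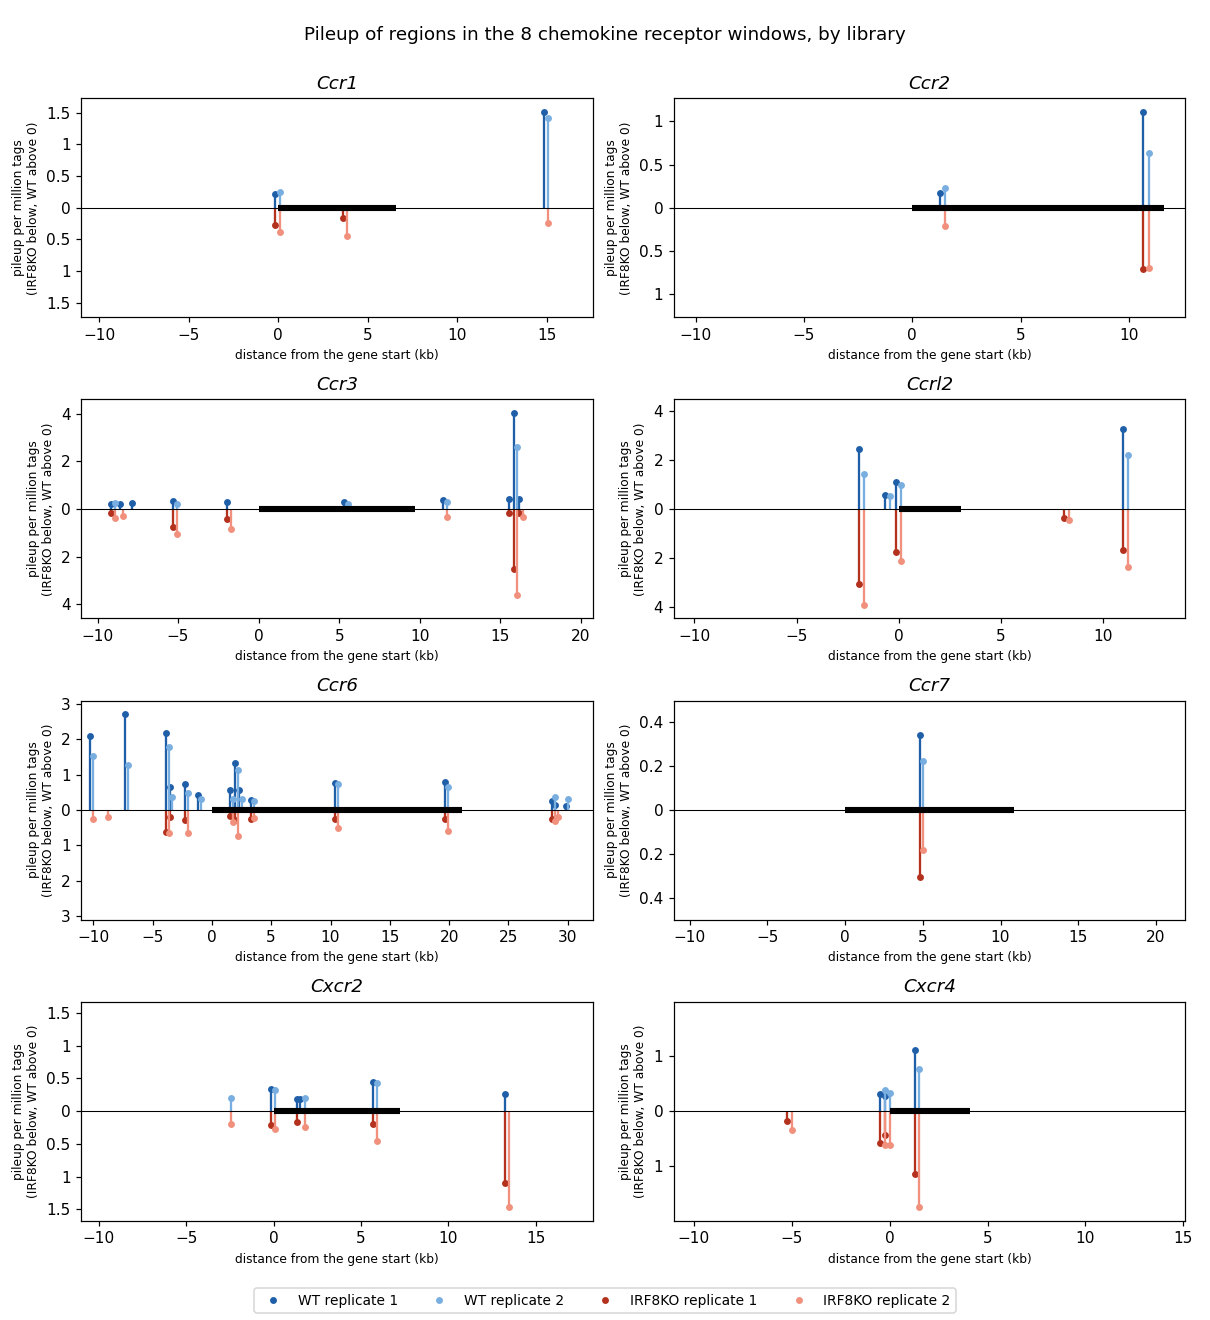
Regions in each receptor window, with the distance of the summit from the gene start on the horizontal axis (kb) and normalised pileup on the vertical axis (for every 1000000 tags), WT drawn above 0 and IRF8KO below it. Each stem is 1 library, set slightly apart for visibility, and a missing stem means no deposited peak; the black bar is the gene body, and the Ccr6 panel shows tall WT stems 7.19 kb upstream with none below.

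Levels were then compared by limma at the 58550 regions with a deposited peak in all 4 libraries, on log2 normalised pileup centred on each library's median, with Benjamini-Hochberg adjustment over all of them. Receptor regions that lacked a peak in at least 1 library were not fitted. Among the 22 fitted, 2 fell in IRF8KO, 9.09% of them beside a background of 12.5%. A further 6 rose, 27.3% beside 13.3%, and 14 were not called. The median difference was 0.107 over the 22 regions and −0.00188 over all regions, on the log2 scale. Without centring, IRF8KO levels were lower by 0.30 (log2) at the median region, and the receptor calls became 1 lower and 1 higher, beside 6.82% and 2.81% of all regions. Leaving out IRF8KO replicate 1 took the lower count to 1.

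**Figure D2:**
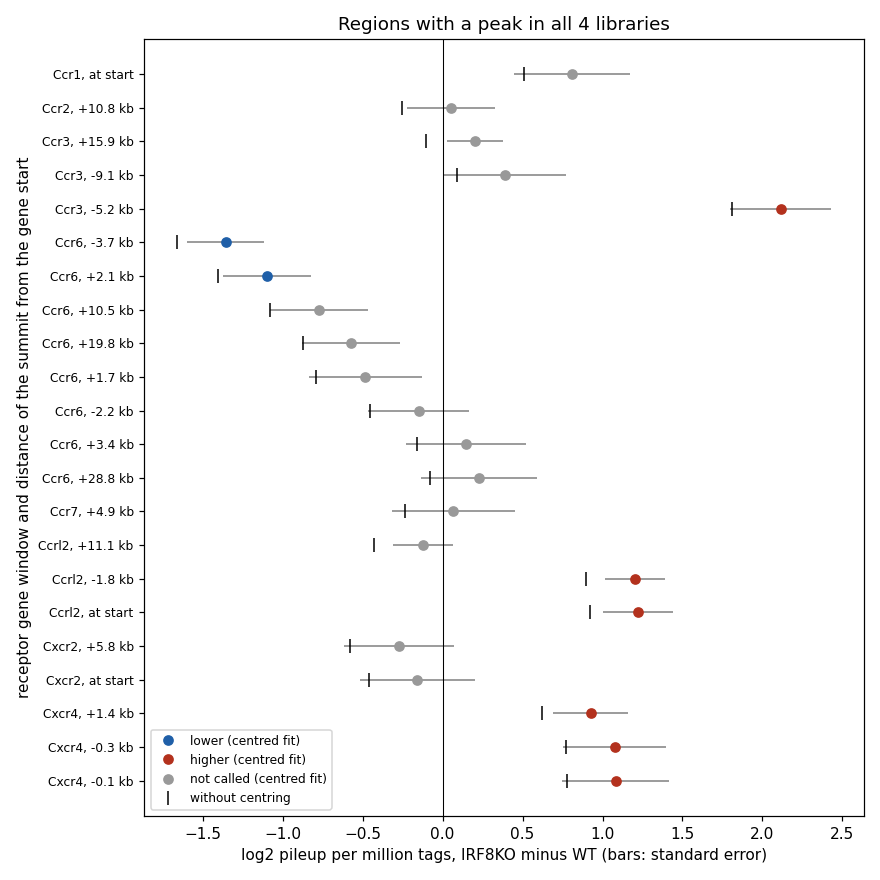
Difference between IRF8KO and WT in log2 normalised pileup at the 22 receptor regions with a peak in all 4 libraries, points from the centred fit with bars of 1 standard error, and ticks for the fit without centring. The 2 lower regions (blue) lie at Ccr6 and the 6 higher ones (red) at Ccr3, Ccrl2 and Cxcr4; every tick lies left of its point.

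Ccr6, the receptor for CCL20, held the most regions of the 8 genes, 16, and the largest fall in summed pileup. The region 7.19 kb upstream (chr17:8228680-8229156) stood at 2.71 and 1.27 in WT, with a −log10 q of 83.0 and 30.3, and had no deposited peak in either IRF8KO library. Those −log10 q values were at or above those of 87.2% and 75.8% of the strict peaks of the same libraries. At the WT mean level, the IRF8KO libraries would have shown pileups of 157 and 132, where the lowest deposited ones were 8 and 7. A second WT-only region, in an intron 2.23 kb from the nearest Ccr6 start (chr17:8238360-8238516), was weak, at 0.554 and 0.307.

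Both called differences at Ccr6 were also decreases. The region 3.72 kb upstream (chr17:8232145-8232441), which carries an ETS-IRF match, read 2.17 and 1.78 in WT and 0.609 and 0.634 in IRF8KO. It was 2.56-fold lower after centring (log2 difference −1.36, SE 0.24, adjusted p = 4.98e-06), the larger of the 2 called decreases, and was called under all 9 alternatives. The intronic region 1.90 kb from the nearest start (chr17:8237988-8238283) read 1.34 and 1.12 against 0.292 and 0.740, a log2 difference of −1.10 (SE 0.27, adjusted p = 0.00118). IRF8KO replicate 1 was the lower of the pair there, and without it the call was lost (−0.75, adjusted p = 0.0773). Without centring the log2 difference was −1.40, with an adjusted p of 0.0535.

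The other 6 fitted Ccr6 regions were not called. The nearest to a call, in an intron (chr17:8246437-8246650), read 0.767 and 0.736 in WT and 0.254 and 0.498 in IRF8KO (log2 difference −0.77, SE 0.31, adjusted p = 0.0533). The remaining 5 had log2 differences from −0.57 to 0.23. At the edge of the window, 10.1 kb upstream, lay a region that fell outside both rules and is named because of its values (chr17:8225830-8226085). It stood at 2.09 and 1.51 in WT, was missing from IRF8KO replicate 1 and reached 0.242 in replicate 2. No library had a deposited peak within 1 kb of any annotated Ccr6 start, so the differences were all away from the promoters.

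Ccr2 encodes the receptor by which inflammatory monocytes follow CCL2. No library had a deposited peak within 1 kb of a Ccr2 start, so its own promoter was not detected as open at this depth. The strongest region inside the gene, in an intron (chr9:124112630-124112907), read 1.11 and 0.634 in WT and 0.711 and 0.695 in IRF8KO, and the groups overlapped (log2 difference 0.05, SE 0.28, adjusted p = 0.929). The only other region of its window, in the 5′ UTR 1.17 kb from the nearest start (chr9:124103286-124103531), was weak, at 0.170 and 0.225 in WT, missing from IRF8KO replicate 1 and at 0.211 in replicate 2.

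Ccr1, which binds CCL3 and CCL5, had only 3 regions, with a different pattern at each. The promoter was weakly open in every library, at 0.213 and 0.245 in WT and 0.279 and 0.378 in IRF8KO. WT and IRF8KO libraries did not overlap, yet the difference was not called (log2 difference 0.81, SE 0.36, adjusted p = 0.0970). An intronic region 3.73 kb from the start (chr9:123964879-123965131) was present only in IRF8KO, at 0.165 and 0.438, with a −log10 q of 3.07 and 18.6. The IRF8KO mean would have given pileups of 14.2 and 14.7 in the WT libraries, above their lowest deposited pileup of 6 and their lowest strict pileup of 9. The level of IRF8KO replicate 1 alone would have given 7.75 and 8.07, below that strict pileup. Downstream of the gene, 15.0 kb from its start, a region with a pair of ETS-IRF matches (chr9:123953621-123953921) stood at 1.51 and 1.41 in WT, was missing from IRF8KO replicate 1 and read 0.242 in replicate 2. It met neither rule, since 1 IRF8KO library had a peak, and is named because of its values and motif matches.

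Ccr3, the eotaxin receptor of eosinophils, held 10 regions and the largest called rise of the set. The region 5.18 kb upstream (chr9:124016650-124016950) read 0.320 and 0.205 in WT and 0.749 and 1.07 in IRF8KO. Both IRF8KO libraries lay above both WT libraries, and the rise was 4.33-fold after centring (log2 difference 2.11, SE 0.31, adjusted p = 1.02e-07). Without centring it was 1.81 (adjusted p = 0.0109), the only rise called on that scale. A region 1.86 kb upstream, named because of its values, read 0.277 in WT replicate 1, was missing from WT replicate 2 and read 0.419 and 0.861 in IRF8KO.

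The Ccr3 window also held the tallest WT peak of all 47 regions, downstream of the gene and 15.9 kb from its start (chr9:124037760-124038091). It read 4.03 and 2.60 in WT and 2.51 and 3.61 in IRF8KO, and the groups overlapped (log2 difference 0.20, SE 0.17, adjusted p = 0.455). Its summit window carries an ETS-IRF match. One intronic region was WT-only and weak, at 0.298 and 0.205 (chr9:124027327-124027538). No library had a peak within 1 kb of the Ccr3 start.

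Ccrl2 had the most open promoter of the 8 receptors, and it was more open in IRF8KO. The promoter region (chr9:111056826-111057715) read 1.11 and 0.961 in WT and 1.78 and 2.14 in IRF8KO. It was 2.34-fold higher after centring (log2 difference 1.22, SE 0.22, adjusted p = 6.21e-06). The region 1.81 kb upstream (chr9:111058981-111059690) read 2.43 and 1.41 in WT and 3.05 and 3.91 in IRF8KO, 2.30-fold higher (log2 difference 1.203, SE 0.19, adjusted p = 3.44e-07). Without centring, neither rise was called, at 0.92 (adjusted p = 0.220) and 0.90 (adjusted p = 0.182).

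Between those 2 risen regions lay one found only in WT. The region 0.543 kb upstream of Ccrl2 (chr9:111057969-111058152) stood at 0.575 and 0.511 there, with no IRF8KO peak. Its −log10 q was modest, at 5.7 and 6.5. The WT mean would have given pileups of 42.8 and 36.0 in the IRF8KO libraries. It is the only receptor region with an ISRE match, the element that interferon-activated factors bind. On the other side of the gene, 7.95 kb from its start, chr9:111049182-111049355 was IRF8KO-only, at 0.381 and 0.468. The IRF8KO mean would have given pileups of 19.9 and 20.8 in WT.

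Cxcr4, the CXCL12 receptor, had 4 regions. The 3 fitted ones, which are neighbours, were called higher after centring, beside 13.3% of all fitted regions, and the fourth had no WT peak. The strongest, in the intron (chr1:128590759-128591367), read 1.11 and 0.757 in WT and 1.14 and 1.74 in IRF8KO, so that WT replicate 1 and IRF8KO replicate 1 nearly met. It was called 1.90-fold higher after centring (log2 difference 0.93, SE 0.23, adjusted p = 0.00131). Its IRF8KO peaks reach to within 1 kb of a Cxcr4 start. The 2 regions just upstream of the start read 0.277 and 0.327 against 0.432 and 0.619, and 0.320 and 0.389 against 0.584 and 0.619. Each had a log2 difference of 1.08 (adjusted p = 0.00991 and 0.00810).

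These 3 rises at Cxcr4 depended on the scaling. Without centring they were 0.62, 0.78 and 0.77, with adjusted p = 0.505, 0.443 and 0.452. Both calls just upstream of the start were also lost without WT replicate 1 (0.80, adjusted p = 0.169, and 0.77, adjusted p = 0.165) and without IRF8KO replicate 1 (1.02, adjusted p = 0.121, and 0.80, adjusted p = 0.220), and the first of them without IRF8KO replicate 2 (1.15, adjusted p = 0.0774). The fourth region, 5.10 kb upstream (chr1:128597289-128597474), was IRF8KO-only and weak, at 0.178 and 0.347. The level of IRF8KO replicate 1 would have given pileups of 8.34 and 8.69 in the WT libraries, below their lowest strict pileup of 9. It carries a PU.1 match.

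Cxcr2, the neutrophil receptor for CXCL1 and related ligands, and Ccr7, by which dendritic cells reach lymph nodes, had no called region and none present in a single genotype. The Cxcr2 promoter was weakly open, at 0.341 and 0.327 in WT and 0.216 and 0.272 in IRF8KO (log2 difference −0.16, SE 0.36, adjusted p = 0.810). Downstream of Cxcr2, 13.4 kb from its start, a region named because of its values (chr1:74167072-74167490) read 1.10 and 1.46 in IRF8KO, 0.256 in WT replicate 1, and was missing from WT replicate 2. Ccr7 had a single strict region, in an intron (chr11:99150014-99150252), at 0.341 and 0.225 in WT and 0.305 and 0.181 in IRF8KO (log2 difference 0.07, SE 0.39, adjusted p = 0.932). Its promoter held no strict peak, and a weaker deposited one of 0.123 in WT replicate 2 and 0.114 in IRF8KO replicate 1.

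The receptors differed in where they were open. A strict promoter peak was found in all 4 libraries at Ccr1, Ccrl2, Cxcr2 and Cxcr4, and in none at Ccr2, Ccr3, Ccr6 and Ccr7. At Ccr3 and Ccr6 the open regions lay farther upstream, inside or downstream of the gene. Peaks at a distance are assigned to a gene here by position only.

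The summed pileup of all deposited peaks in each window gives 1 value per receptor and library. Ccr6 summed to 13.8 and 9.76 in WT and to 2.58 and 4.65 in IRF8KO, a mean of 11.8 ± 2.83 (SD, n = 2) against 3.61 ± 1.47. Ccr2, from its gene body and 5′ side only, summed to 1.41 and 1.02 against 0.711 and 0.906, and Ccr1 to 1.73 and 2.05 against 0.444 and 1.33. Both WT libraries lay above both IRF8KO libraries at these 3 genes, a pattern that 42.2% of 17259 protein-coding genes shared. Cxcr4 summed to 1.96 and 1.80 in WT and 2.55 and 3.81 in IRF8KO, and Cxcr2 to 1.73 and 1.37 against 1.98 and 2.84. At these 2 genes both IRF8KO libraries lay above both WT libraries, as at 7.14% of protein-coding genes. Ccrl2, Ccr3 and Ccr7 overlapped.

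Dividing each sum by the library's median level changed which receptors separated. Ccr6, Ccr2 and Ccr1 stayed higher in WT, by 2.71-fold, 1.205-fold and 1.92-fold, beside a background of 29.5%. Cxcr4, Cxcr2, Ccrl2 and Ccr3 were higher in IRF8KO, by 2.05-fold, 1.91-fold, 1.55-fold and 1.32-fold, beside a background of 23.0%. Ccr7 still overlapped. A peak missing from a library adds nothing to its sum. At Ccr1 the largest part of both WT sums was the downstream region (normalised pileup 1.51 and 1.41). The Ccr1 promoter read higher in IRF8KO, uncalled. At Cxcr2 the largest part of both IRF8KO sums was the downstream region (1.10 and 1.46). The 2 fitted Cxcr2 regions had log2 differences of −0.16 and −0.27, uncalled. The Ccr1 window also overlaps Ccr1l1, and the Cxcr2 window Rufy4. With 2 libraries a group, these sums have no test of their own.

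**Figure D3:**
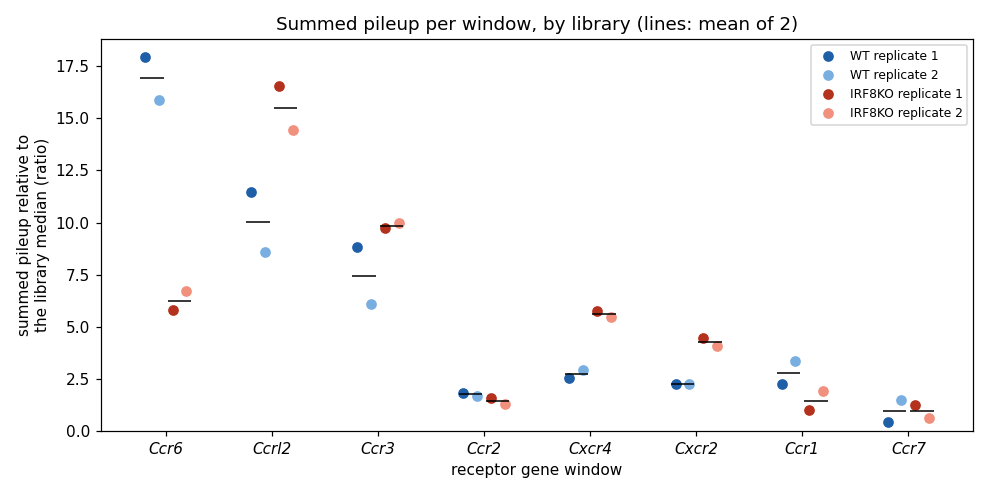
Summed pileup of all deposited peaks in each receptor window, divided by the library's median level at regions with a peak in all 4 libraries (vertical axis, ratio), for the 4 libraries; short lines are means of 2. WT points lie above IRF8KO points at Ccr6, Ccr2 and Ccr1, below them at Ccrl2, Ccr3, Cxcr4 and Cxcr2, and among them at Ccr7.

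Over all 8 windows together the libraries did not separate. The sums were 36.47 and 25.89 in WT and 20.48 and 30.93 in IRF8KO, a mean of 31.2 ± 7.48 (SD, n = 2) against 25.7 ± 7.38, by an exact two-sided permutation test p = 0.667, where 2 against 2 libraries allow no p below 0.333. The covered length was 9819 and 9774 bp in WT and 8646 and 11105 bp in IRF8KO, and the mean level per peak was 0.760 and 0.551 against 0.539 and 0.644. Relative to the library medians, the difference between IRF8KO and WT changed sign, from −5.47 to 0.44.

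The motif content of the receptor regions was set beside that of all 155546 regions. The ETS-IRF composite was found in 4 of 47 receptor regions, and in 4.28% of all regions. Of the 4, the one upstream of Ccr6 fell, the one downstream of Ccr1 was low or absent in IRF8KO, the one in Cxcr4 rose and the one downstream of Ccr3 was not called. The match in Cxcr4 overlaps a PU.1 match, and an ETS-IRF and a PU.1 match can share bases in this way. None of the 4 WT-only regions and none of the 3 IRF8KO-only regions held the composite within 100 bp of the summit. The ISRE was found in 1 receptor region (3.12% of all), PU.1 in 5 (7.74%), AP-1 in 1 (5.92%), CEBP in 6 (9.57%) and RUNX in 4 (5.58%). A match is a string of letters in the window and does not show binding.

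Further chemokine receptors were taken as a list of 14 genes with the gene and 10 kb on either side as the window. Of 119 regions, 9 (7.56%) were WT-only and 7 (5.88%) IRF8KO-only, beside 5.58% and 3.86% of all regions. Among 63 fitted, 10 (15.9%) fell and 13 (20.6%) rose, beside 12.5% and 13.3% of all fitted regions, with a median log2 difference of −0.02. Without centring, 5 (7.94%) fell and 4 (6.35%) rose, beside 6.82% and 2.81%. The WT-only regions lay at Cxcr5 (3), Ackr2 (2), Cxcr1, Cxcr3, Cx3cr1 and Xcr1, and the IRF8KO-only ones at Ackr3 (3), Cx3cr1 (3) and Ackr4 (1). The tallest IRF8KO-only region, downstream of Ackr3, a scavenger of CXCL12, stood at 2.67 and 3.46 (chr1:90225488-90225987), and the Ackr3 promoter also rose (log2 difference 1.30, SE 0.28, adjusted p = 1.93e-04), a call lost without centring (0.99, adjusted p = 0.258).

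Falls among these other receptors were called at Cx3cr1 (5 regions), Cxcr6 (2), Ccr8 (1), Ccr9 (1) and Xcr1 (1). Rises were called at Cxcr5 (4), Cx3cr1 (4), Xcr1 (2), Cxcr1 (1), Cxcr3 (1) and Ackr3 (1). Without centring, rises were called only at Cx3cr1 (3) and Xcr1 (1), and falls at Cx3cr1, Cxcr6, Ccr8, Ccr9 and Xcr1 (1 each). A window names a neighbourhood and not a target gene, and several of these windows hold other genes. The deepest fall was at Xcr1, a receptor of cross-presenting dendritic cells, where chr9:123863241-123863523 read 1.51 and 1.43 in WT and 0.165 and 0.347 in IRF8KO (log2 difference −2.32, SE 0.29, adjusted p = 1.42e-09). In the Cx3cr1 window, chr9:119925124-119925665 read 0.469 and 0.552 in WT against 3.31 and 4.41 in IRF8KO. This was the largest rise of the list (log2 difference 3.21, SE 0.22, adjusted p = 1.71e-19). It lies in the 3′ UTR of Wdr48, and its nearest start, 4.16 kb away, belongs to Wdr48. The region at the Cx3cr1 start itself (chr9:120068115-120068528) read 4.30 and 2.90 in WT against 1.61 and 2.63 in IRF8KO. That region was called lower by limma (log2 difference −0.48, SE 0.18, adjusted p = 0.0413), a call lost without centring (−0.78, adjusted p = 0.274).

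Several of these receptors also mark other leukocytes, so the promoters of marker genes were counted in each library. Border macrophage markers had strict promoter peaks at 2 of 4 genes in both WT libraries and 3 of 4 in both IRF8KO libraries, with summed levels of 0.788 and 0.614 against 2.39 and 4.12. Lyve1 was at 0 in all 4 libraries, and Cd163 only in the WT libraries. Of 5 T cell markers, 3 and 2 were open in WT and 3 and 2 in IRF8KO, with sums of 1.43 and 1.60 against 3.88 and 3.90. The T cell sum was mostly Cd3d, while Cd3e and Cd3g were at 0 in all 4. Monocyte markers were open at 1 and 2 of 5 genes in WT and 1 and 2 in IRF8KO, with sums of 2.17 and 1.86 against 0.673 and 1.16, and Ly6c2 and Ccr2 at 0 in all 4. The monocyte sum was mostly Vcan, at 2.17 and 1.66 in WT against 0.673 and 0.997. Of 8 neutrophil markers, 2 and 1 were open in WT and 1 and 3 in IRF8KO (sums 1.19 and 0.491 against 0.178 and 0.619), with Elane, Mpo, Ngp and Ly6g at 0 in all 4.

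Dendritic cell markers were open at 3 and 2 of 5 genes in WT and at 3 and 2 in IRF8KO (sums 3.28 and 1.90 against 2.69 and 2.22), with the Xcr1 promoter at 0 in all 4. B cell markers were open at 2 of 5 genes in both WT libraries and 1 in both IRF8KO libraries (sums 0.916 and 0.716 against 0.482 and 0.483), with Cd79a, Cd79b and Ms4a1 at 0. Eosinophil or mast cell markers had 1 open promoter of 4 in each library except IRF8KO replicate 1, which had none (sums 0.618 and 0.634 against 0 and 0.423), and Epx, Prg2 and Cpa3 were at 0. The part of other cells in the receptor differences was not tested.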

How the data were processed

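Chromatin accessibility was measured by ATAC-seq (12 cycles of PCR) in 4 libraries, 2 WT and 2 IRF8KO. Per the submitters' processing notes, bcl2fastq, Bowtie2, MACS2 2.1.1.20160309, deepTools and build mm10 were used. Per the file headers, MACS2 called peaks in each library at a p cutoff of 0.01, with tags shifted by −37 and extended to 73 bases. The deposited peak lists give pileup, a coverage signal at the summit, in whole tags. The −log10 q values and the fold ratio over background are the authors' own per peak; the ratio was not used. A pileup counts tags, not independent molecules.

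Peaks on 20 chromosomes (autosomes and X) were used. Strict peaks (−log10 q of 2 or more) were merged where they shared 1 bp. Pileup was scaled to 1000000 header tags. limma 3.58.1 (R 4.3.3) with a variance trend was fitted to median-centred log2 pileup over all regions with a peak in every library, with no pseudocount; calls had a Benjamini-Hochberg adjusted p under 0.05, and the script was tested on simulated data. Requiring a peak in every library leaves out regions lost in 1 group. The 3′ flank of Ccr2 is not reported here. Promoters were 1 kb on either side of a GENCODE M21 start. The T cell marker Trbc2 was not used here, since its gene type was outside those taken from the annotation.

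Named are all 8 receptors, with their promoters and their called or genotype-specific regions; others named for their values are marked as such. The members, lists and rules were chosen with earlier results of these data known. Alternatives were the strict threshold, the overlap, the window, the scaling, the variance model, the replicate block and each library left out.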

Additional observations from a re-analysis of the deposited data

How the results depend on the processing

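The count of 4 WT-only regions became 2 at a −log10 q of 5, and leaving out 1 library gave 5 to 8. The count of 3 IRF8KO-only regions became 1 at a −log10 q of 5, and leaving out 1 library gave 3 to 5. The 6 higher regions became 1 without centring, and leaving out 1 library gave 4 to 6. The 2 lower regions became 1 without centring, and leaving out 1 library gave 1 to 2, with 1 without IRF8KO replicate 1. The cause was not tested. At the further receptors, 10 lower and 13 higher regions became 5 and 4 without centring. The difference in summed pileup was −5.47, from −10.76 to −0.187 with 1 library left out, −1.39 with 5 kb windows and 0.44 relative to the library medians.

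Of 14 named regions under 9 settings each, 106 values kept both their sign and their side of the threshold. A further 12 lost and 1 gained a call, and 7 changed sign while staying uncalled. The sign changes were at uncalled regions. The Ccr7 intron was −0.24 without centring and −0.63 to 0.76 with 1 library left out (−0.07 without WT replicate 2), the Ccr2 intron −0.25 and −0.29 to 0.39 (−0.19 without WT replicate 2), and the region downstream of Ccr3 was −0.10 without centring. Where a library was left out, the lone library of its group was assumed to vary like the others.

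The labels number replicates 1 and 2 in both groups and do not say what same-numbered libraries share. After centring, these libraries did not deviate together (correlation 0.00436), which cannot show whether they shared a batch. With the replicate block, 3 regions were lower and 6 higher, the added one being the Ccr6 intron at chr17:8246437-8246650 (−0.77, adjusted p = 0.0473 by limma). At these depths the weakest strict peaks of the whole libraries rest on 9 to 12 tags, and a level below that would not be seen as a strict peak. At some places the limit was higher. At Ccr6, 1.04 kb upstream, a pileup of 15 in WT replicate 2 had a −log10 q of only 1.22.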
